A study of Mus musculus with 26 samples.

Results

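The transition from pachytene spermatocytes to round spermatids was profiled by RNA sequencing in mice with a knockout of Nkapl, a gene expressed mainly in testicular germ cells. The libraries of this transition are 4 of the 26 samples of the series, chosen by their labels: 2 libraries of round spermatids and 2 libraries of pachytene spermatocytes, all labelled Nkapl knockout and postnatal day 21. The same change in wild-type mice of that day, also with 2 libraries for each cell type, is used where the knockout is set against it. The other 18 samples are whole testes and were not analysed here. No treatment is named for any group, and none of the sources used here gives the strain of the sorted cells, the sorting method or the altered stretch of Nkapl. The design text speaks of biological triplicates, whereas 2 libraries per sorted group were used, and no label says that the 2 came from separate mice. The p-values therefore measure the spread between these libraries, which may be technical.

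Pachytene spermatocytes are in the long meiotic prophase, in which homologous chromosomes are held together by the synaptonemal complex and the X and Y chromosomes are transcriptionally silenced. After the meiotic divisions, haploid round spermatids begin to build the acrosome and the flagellum, and they store messenger RNA for the later exchange of histones for transition proteins and protamines. Much of the spermatid programme is known to depend on regulators such as CREM, RFX factors and SOX30, while MYBL1 (A-MYB) drives many pachytene genes, including those for piRNAs, the small RNAs that bind PIWI proteins.

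The files held counts for 24682 genes, and total counts ranged from 18155299 to 19569272 per sorted library. A gene entered the test when its counts were high enough for edgeR's filterByExpr, which left 15805 genes. Levels are given as CPM, counts relative to the library size after TMM scaling (a trimmed mean of gene ratios), and are not corrected for gene length. A gene was called higher or lower when the adjusted p of edgeR's quasi-likelihood test, two-sided and Benjamini-Hochberg adjusted over all 15805 genes, was under 0.05. Differences are on the log2 scale, spermatids minus spermatocytes, with the standard error (SE) of the fit.

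Nkapl itself, a protein-coding gene at chr13:21467047-21468501 of GRCm38, measured 24.6 and 23.6 CPM in knockout round spermatids, against 127 and 125 CPM in the spermatocytes labelled knockout. In the wild type it measured 88.4 and 90.3 CPM in round spermatids, against 90.1 and 86 CPM in the spermatocytes labelled wild type. The spermatid libraries thus follow their labels, whereas the spermatocytes labelled knockout held more Nkapl RNA than those labelled wild type. Whether the counted part of the gene lies outside the altered stretch was not tested. Every difference is drawn from these labels, and values from the alternative in which the spermatocyte libraries of the 2 genotypes change places are given beside many of the results. Between the spermatid libraries and the spermatocytes labelled knockout, Nkapl was lower by a log2 difference of -2.38 ± 0.06 (SE, n = 2 libraries each), with an adjusted p of 2.8e-23. The protamine gene Prm1 was lower in the libraries labelled knockout in both cell types, and what set its level was not tested.

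All 12 round spermatid markers, among them Acrv1, Spem1 and Tssk2, were higher in knockout spermatids (37.7% of all genes tested were), with log2 differences between 1.21 and 1.76. Their summed level was 2189 and 2132 CPM in knockout spermatids, against 729.9 and 739.7 CPM in the spermatocytes labelled knockout. The spermatocyte libraries thus held 34.0% of the spermatid level of these markers, and 29.4% in the wild type. These values rest on the spermatocyte labels. With the spermatocyte libraries exchanged, 7 of the 12 markers were higher and 5 lower in knockout spermatids, with a median log2 difference of 0.81. The spermatocyte libraries then held 101.7% of the summed spermatid level. This sum includes Prm1, Prm2, Tnp1 and Tnp2, which turn direction under the exchange. Acrv1 was at 128 and 125 CPM in the spermatocytes labelled wild type, against 307 and 302 CPM in knockout spermatids. Of 10 pachytene spermatocyte markers, 8 were lower (39.3% of all genes were) and 2 higher in knockout spermatids. Their summed level was 927.2 and 926.3 CPM in knockout spermatids, against 2560 and 2521 CPM in the spermatocytes labelled knockout, so that the spermatids held 36.5% of the spermatocyte level (50.9% with the spermatocyte libraries exchanged). A wider list of 38 pachytene genes had no such direction, with 18 higher and 14 lower in knockout spermatids, and it summed to 25987 and 25809 CPM in knockout spermatids, against 25507 and 25329 CPM in the spermatocytes labelled knockout. In bulk samples, fewer cells of a type and less RNA per cell cannot be told apart.

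Markers of other testis cells moved with the comparison as well. The summed level of 17 macrophage markers was 245 and 234 CPM in knockout spermatids, against 73.6 and 75.2 CPM in the spermatocytes labelled knockout. Most of this sum is Aif1, with 178 and 167 CPM in knockout spermatids, against 55.7 and 57.7 CPM in the spermatocytes labelled knockout. The 23 Sertoli cell markers summed to 198 and 203 CPM in knockout spermatids, against 357 and 357 CPM in those spermatocytes, and 13 Leydig cell markers to 79.2 and 77.3 CPM, against 143 and 142 CPM. The 21 markers of undifferentiated spermatogonia summed to 45.4 and 43.5 CPM in knockout spermatids, against 103 and 109 CPM. The 15 peritubular myoid markers summed to 173 and 175 CPM in knockout spermatids, against 83.3 and 86.5 CPM in the spermatocytes labelled knockout and 152 and 142 CPM in those labelled wild type. Actg2 alone gave 107 and 108 CPM of this sum in knockout spermatids, and Id4 gave 58.7 and 67.4 CPM of the spermatogonial sum in the spermatocytes labelled knockout. The 12 endothelial markers summed to 22.7 and 21.8 CPM, against 9.02 and 10.1 CPM, with Emcn at 0 counts in the spermatocytes labelled knockout. Of 7 red blood cell markers, 5 had 0 counts in knockout spermatids and 4 had 0 counts in those spermatocytes. The part of these cells in the differences between the cell types was not tested.

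**Figure D1:**
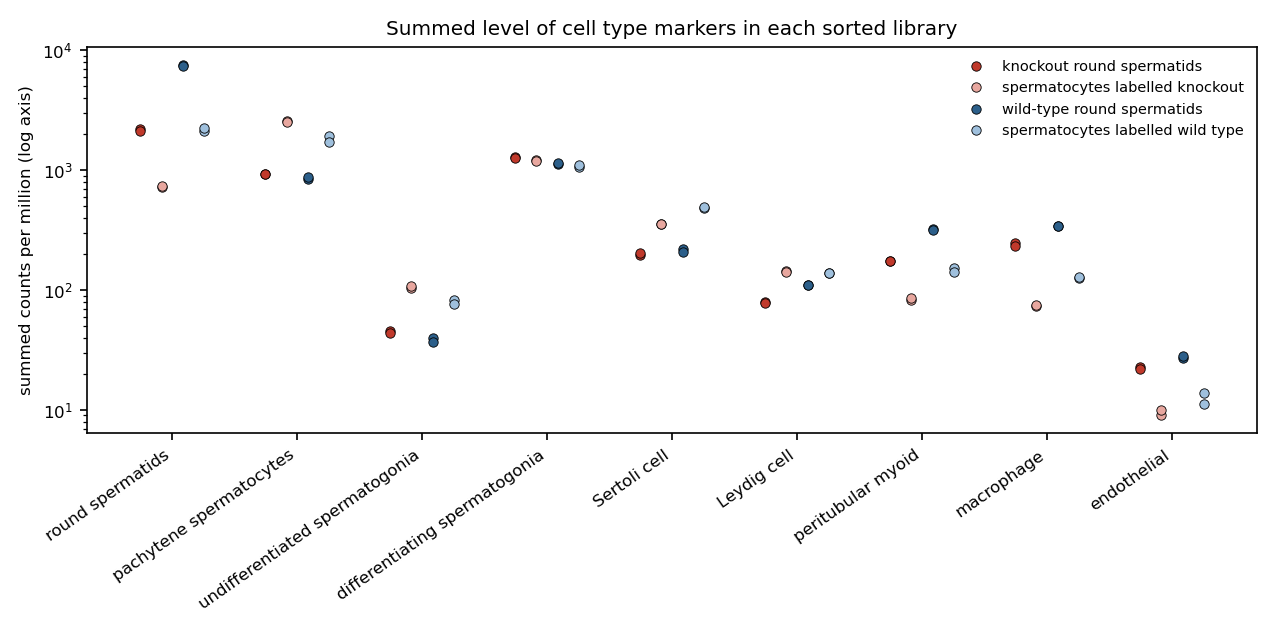
Summed level of marker genes of 9 cell types in the 8 sorted libraries, in CPM on a log axis, with 1 point per library. Round spermatid markers stand at 2189 and 2132 CPM in knockout spermatids and at 729.9 and 739.7 CPM in the spermatocytes labelled knockout, and macrophage markers are higher in spermatids of both genotypes.

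Across the transition labelled knockout, 5958 genes (37.7% of those tested) were higher and 6212 (39.3%) were lower in round spermatids, so that 77.0% of all genes were called in 1 direction or the other. At least 2-fold differences were called for 3350 genes higher (21.2%) and 2872 genes lower (18.2%). In 88.7% of the genes the 2 spermatid libraries did not overlap the 2 spermatocyte libraries. The median log2 difference over all genes was -0.04, and it was -0.16 when libraries were scaled by their totals alone, a shift that applies to all genes. With the spermatocyte libraries exchanged between genotypes, 4691 of the 5958 higher genes and 4815 of the 6212 lower genes kept their call, and 386 and 206 were called in the opposite direction.

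The rises of abundant genes lay in a narrow band, and the falls did not. Among the 524 genes that were at least 2-fold higher and averaged at least 100 CPM in knockout spermatids, the log2 differences had a median of 1.55, with the 5th and 95th percentiles at 1.06 and 1.77. Among the 300 genes that were at least 2-fold lower and averaged at least 100 CPM in the spermatocytes labelled knockout, the median was -1.69, and the 5th and 95th percentiles were -3.11 and -1.05. The largest rise among the abundant genes was 2.08 and the largest fall -4.78. With the spermatocyte libraries exchanged, the same 524 genes had a median of 0.94 and the 5th and 95th percentiles at 0.34 and 1.45.

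**Figure D2:**
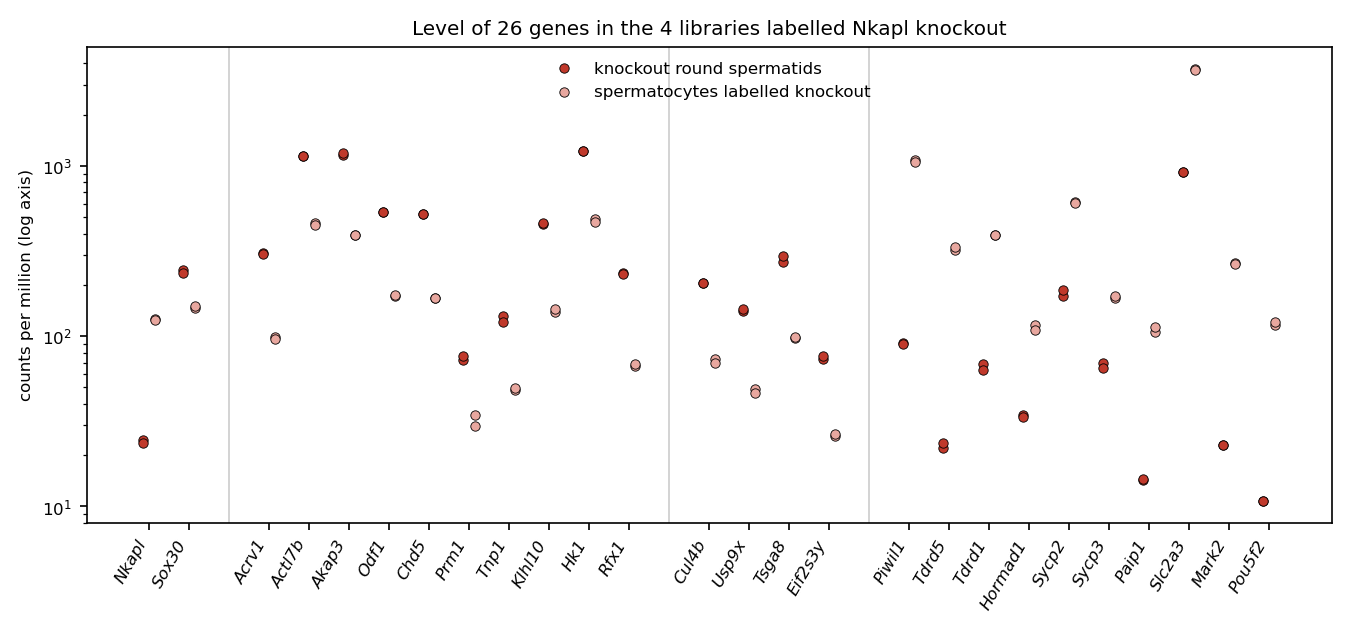
Level of 26 genes in the 4 libraries labelled Nkapl knockout, in CPM on a log axis, with 1 point per library and round spermatids left of spermatocytes for each gene. From left to right the blocks hold Nkapl and Sox30, genes of the spermatid programme, X- and Y-linked genes, and spermatocyte genes. In no gene shown do the spermatid and spermatocyte libraries overlap, which is also so in 88.7% of all genes tested.

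Promoter windows of 4 genes are printed here because CREM, RFX factors and MYBL1 are known to bind motifs whose letters can be searched. Izumo1 (a sperm protein that binds the egg) and Actl7b (an actin-like protein of spermatids) rose, and Tdrd5 (a piRNA pathway protein) and Sycp3 (a synaptonemal complex protein) fell. The windows are the 250 bases before an annotated start in RefSeq, GRCm38.p6, on the strand of the gene, and capitals mark the motif match. Where a gene had several starts, a window that holds the motif was taken. That of Tdrd5 lies inside the annotated span of the gene, chr1:156255296-156304304. They lie at chr7:45621561-45621810 on the plus strand for Izumo1, chr4:56741426-56741675 on the minus strand for Actl7b, chr1:156303349-156303598 on the minus strand for Tdrd5 and chr10:88459337-88459586 on the plus strand for Sycp3. These genes were chosen after their values and motifs were seen.
Izumo1 (CRE): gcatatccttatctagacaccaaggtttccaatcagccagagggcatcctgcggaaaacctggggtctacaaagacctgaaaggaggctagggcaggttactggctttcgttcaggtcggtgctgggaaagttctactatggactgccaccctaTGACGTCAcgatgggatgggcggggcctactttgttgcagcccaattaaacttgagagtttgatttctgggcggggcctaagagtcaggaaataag
Actl7b (X-box): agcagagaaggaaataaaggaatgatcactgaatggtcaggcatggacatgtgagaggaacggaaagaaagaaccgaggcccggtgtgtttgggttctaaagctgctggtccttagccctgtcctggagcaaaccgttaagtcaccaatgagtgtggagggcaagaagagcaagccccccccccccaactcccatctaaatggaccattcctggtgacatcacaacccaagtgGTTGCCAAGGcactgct
Tdrd5 (MYB): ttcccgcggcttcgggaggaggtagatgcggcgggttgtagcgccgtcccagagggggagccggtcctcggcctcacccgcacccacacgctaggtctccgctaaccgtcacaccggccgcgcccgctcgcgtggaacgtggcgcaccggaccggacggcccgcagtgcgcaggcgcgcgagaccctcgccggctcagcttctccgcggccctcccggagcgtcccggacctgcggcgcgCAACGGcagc
Sycp3 (MYB): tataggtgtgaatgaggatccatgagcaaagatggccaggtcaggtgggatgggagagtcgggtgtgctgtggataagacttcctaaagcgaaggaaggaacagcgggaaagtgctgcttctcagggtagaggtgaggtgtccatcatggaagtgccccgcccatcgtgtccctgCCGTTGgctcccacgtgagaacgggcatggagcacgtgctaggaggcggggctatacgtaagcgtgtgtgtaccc

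The motifs searched on both strands were TGACGTCA, the full cyclic AMP response element (CRE) that CREM binds, GTTGCC followed by any 2 bases and GG, a form of the X-box that RFX factors bind, and CAACGG, a core that MYB factors bind. In Sycp3 the match is on the opposite strand. Over full windows, from 250 bases before to 50 after the start, the CRE stood in 2.51% of the windows of genes at least 2-fold higher, in 2.59% of those at least 2-fold lower and in 2.83% of those of all genes tested. The X-box stood in 3.76%, 2.18% and 2.99% of these windows in the same order, and the MYB core in 4.73%, 7.47% and 6.77%. These shares describe letters and not binding, and many genes that moved hold none of the 3 motifs.

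Acrosome genes were largely higher in knockout spermatids. Of 50 members tested, 44 rose and 6 fell, with a median log2 difference of 1.34, beside -0.04 over all genes. With the spermatocyte libraries exchanged the median was 0.73, and 41 rose. Acrv1, which encodes an acrosomal vesicle protein and lies at chr9:36693220-36698845, measured 307 and 302 CPM in knockout spermatids, against 99 and 96.4 CPM in the spermatocytes labelled knockout. Both spermatid libraries lie above both spermatocyte libraries, with a log2 difference of 1.64 ± 0.05 (SE) and an adjusted p of 3.5e-22. Actl7b measured 1146 and 1146 CPM in knockout spermatids, against 459 and 450 CPM, and its log2 difference was 1.34 ± 0.05. Izumo1 was at 152 and 148 CPM, against 47.2 and 44.5 CPM. Tmco5 (1.75 on the log2 scale) and Actl7a (1.56), an actin-like protein of the acrosomal region, rose by similar amounts. The exceptions include Tex101, a germ cell surface protein needed for fertility, at 28.1 and 34.7 CPM in knockout spermatids, against 195 and 200 CPM, and Gopc, a Golgi protein required for acrosome formation, at 18.6 and 18.8 CPM, against 82.0 and 81.8 CPM.

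Genes of spermatid chromatin and the nuclear envelope rose as well, with 21 of 28 members tested higher, 5 lower and a median log2 difference of 1.31, against 15 higher, 12 lower and a median of 0.33 with the spermatocyte libraries exchanged. Chd5, a chromatin remodeller needed for the removal of histones, measured 521 and 520 CPM in knockout spermatids, against 167 and 167 CPM, a log2 difference of 1.64 ± 0.05 with an adjusted p of 1.1e-22. Hils1, a spermatid linker histone, was at 442 and 425 CPM, against 154 and 149 CPM. Sun5, which anchors the sperm head to the tail, was at 174 and 163 CPM, against 50.7 and 53.9 CPM, and Hmgb4, a high mobility group protein of the germ line, was at 171 and 166 CPM, against 58.0 and 61.5 CPM. The members that fell include Rnf8, H3f3b, Kdm3a and Brdt, so the group did not move as a whole. Rnf8, a ubiquitin ligase, was low in all 4 libraries, with 0.458 and 0.574 CPM in knockout spermatids, against 2.19 and 1.71 CPM.

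The transition protein and protamine genes, whose products replace histones, showed another pattern. Prm1, at chr16:10796332-10796823, measured 72.6 and 76.6 CPM in knockout spermatids, against 29.6 and 34.4 CPM in the spermatocytes labelled knockout. In the wild type it measured 1115 and 1055 CPM in round spermatids, against 284 and 302 CPM in the spermatocytes labelled wild type. Prm2 was at 149 and 128 CPM in knockout spermatids, against 54.7 and 53.0 CPM. Tnp1 was at 131 and 120 CPM, against 48.4 and 49.4 CPM, and Tnp2 at 170 and 160 CPM, against 73.3 and 68.9 CPM. By the labels these 4 genes rose within the knockout by log2 differences of 1.22, 1.36, 1.36 and 1.21, whereas with the spermatocyte libraries exchanged the direction turns, to -1.97, -1.54, -1.23 and -1.35. The rise by the labels was smaller than in the wild type in all 4: the differences between the transitions were -0.67 ± 0.09 for Prm1, -0.59 ± 0.09 for Prm2, -0.47 ± 0.08 for Tnp1 and -0.66 ± 0.07 for Tnp2 (SE, adjusted p of 3.1e-05 or less in each). These genes were lower in the libraries labelled knockout in both cell types, whereas Nkapl was lower in them only in spermatids. Which level the genotype gives these genes in spermatocytes was not tested.

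Of 35 tested genes of the fibrous sheath, the outer dense fibres and the mitochondrial capsule, all structures of the sperm tail, 31 rose and 2 fell, with a median log2 difference of 1.41. The median was 0.66 with the spermatocyte libraries exchanged, and 26 rose. Akap3, a scaffold protein of the fibrous sheath, measured 1158 and 1188 CPM in knockout spermatids, against 390 and 390 CPM, with a log2 difference of 1.59 ± 0.04 and an adjusted p of 1.9e-23. Odf1, a main protein of the outer dense fibres, was at 534 and 534 CPM, against 171 and 175 CPM, and Cabyr, a calcium-binding protein of the sheath, at 519 and 493 CPM, against 146 and 163 CPM. The 2 groups of libraries do not overlap in these genes, as in 88.7% of all genes tested. Akap4, the X-linked partner of Akap3, was at 834 and 831 CPM in knockout spermatids, against 290 and 285 CPM.

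Genes of the axoneme, the microtubule core of the flagellum, and of its assembly moved both ways. Of 68 tested, 35 (51.5%) rose and 22 (32.4%) fell, with a median of 0.12, beside 37.7% and 39.3% of all genes tested. Under scaling by library totals 28 rose and 29 fell, with a median of -0.003. Iqca, an ATPase-like protein of the dynein regulatory complex, was at 95.6 and 97.4 CPM in knockout spermatids, against 24.4 and 21.3 CPM, and Cfap58 at 391 and 381 CPM, against 138 and 139 CPM. Dnah2, an inner dynein arm heavy chain, was at 116 and 114 CPM in knockout spermatids, against 460 and 450 CPM, a log2 difference of -1.99 ± 0.06. Ift80, a subunit of the intraflagellar transport complex, was at 58.7 and 59.7 CPM, against 174 and 166 CPM.

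Ion channels and signalling proteins of sperm split in the same way, with 15 of 27 (55.6%) higher and 8 (29.6%) lower. Of all genes tested, 37.7% were higher and 39.3% lower. Catsper4 and Catsper1, pore subunits of the CatSper calcium channel, rose, the first with 297 and 293 CPM in knockout spermatids, against 89.0 and 85.7 CPM, and the second with 187 and 183 CPM, against 56.6 and 53.6 CPM. Catsperg2, an auxiliary subunit of the same channel, fell, with 132 and 133 CPM in knockout spermatids, against 303 and 292 CPM. Plcz1, the phospholipase that activates the egg, was at 267 and 263 CPM, against 79.2 and 81.6 CPM, and Atp1a4, the sperm isoform of the sodium pump, at 360 and 345 CPM, against 114 and 120 CPM. Pkd2l1, a cation channel, was among the largest falls, with 3.38 and 3.84 CPM in knockout spermatids, against 58.3 and 59.7 CPM.

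Of 32 testis kinases and phosphatases, 19 (59.4%) rose and 7 (21.9%) fell, with a median of 0.29, beside 37.7% and 39.3% of all genes tested. Hipk4, a kinase needed for sperm head shaping, was at 295 and 290 CPM in knockout spermatids, against 83.7 and 83.8 CPM. Mark2, a kinase that acts on microtubule-associated proteins, was at 23.0 and 23.1 CPM, against 270 and 264 CPM, a log2 difference of -3.54 ± 0.07 with an adjusted p of 9.9e-27. Stk31, a Tudor domain kinase of the germ line, was at 29.6 and 29.5 CPM, against 168 and 174 CPM. Of 29 genes of germ cell glycolysis, 15 (51.7%) rose and 10 (34.5%) fell, beside 37.7% and 39.3% of all genes tested. The sperm isoforms Gapdhs (577 and 576 CPM in knockout spermatids, against 197 and 195 CPM) and Aldoart2 (459 and 440 CPM, against 143 and 147 CPM) rose, as did hexokinase Hk1 (1218 and 1222 CPM, against 485 and 467 CPM). Slc2a3, a glucose transporter, was at 923 and 919 CPM in knockout spermatids, against 3718 and 3668 CPM in the spermatocytes labelled knockout, a log2 difference of -2.00 ± 0.04.

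Ubiquitin and proteasome genes tied to spermiogenesis were mostly higher, with 28 of 40 (70%) up, 9 (22.5%) down and a median of 0.64. Over all genes tested, 37.7% were higher and 39.3% lower. Klhl10, an adaptor of a spermatid ubiquitin ligase, was at 453 and 459 CPM in knockout spermatids, against 139 and 144 CPM. Rnf151, a testis ring finger protein, rose by 1.47 on the log2 scale. Psma8, the meiotic proteasome subunit, went the other way, with 40.1 and 38.8 CPM in knockout spermatids, against 191 and 189 CPM. All genes with proteasome subunit symbols, Psma8 among them, were mostly lower, with 24 of 37 down, 7 up and a median of -0.38. With the spermatocyte libraries exchanged 15 were down and 11 up.

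Among 35 transcription regulators of spermatids, 25 (71.4%) rose and 8 (22.9%) fell, with a median of 0.45, beside 37.7% and 39.3% of all genes tested. Sox30, at chr11:45979069-46017992, measured 243 and 235 CPM in knockout spermatids, against 146 and 151 CPM, a log2 difference of 0.69 ± 0.06 with an adjusted p of 1.2e-11. Crem was at 311 and 311 CPM, against 185 and 178 CPM. Rfx1 was at 235 and 231 CPM, against 66.5 and 68.8 CPM, and Foxj1, a regulator of cilia genes, was at 236 and 245 CPM, against 70.7 and 69.8 CPM. Spz1, a spermatogenic zipper protein, was at 604 and 581 CPM, against 195 and 204 CPM. Pou5f2, a POU domain factor of spermatocytes, was at 10.7 and 10.8 CPM in knockout spermatids, against 116 and 121 CPM, a log2 difference of -3.45 ± 0.08. The regulators thus spanned rises near those of the structural genes, smaller rises such as those of Sox30 and Crem, and the fall of Pou5f2.

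**Figure D3:**
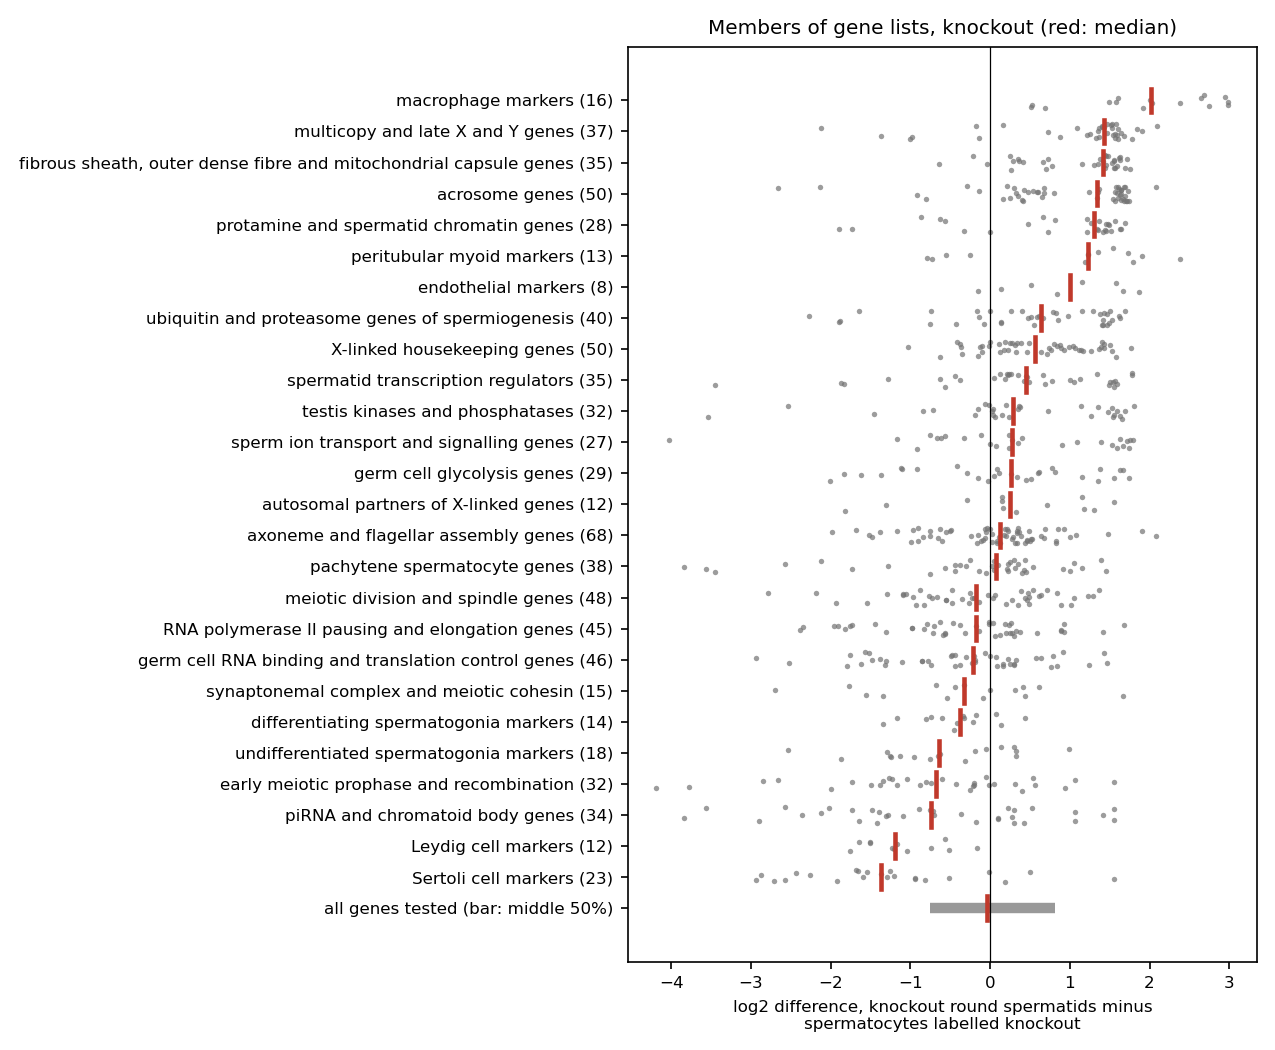
Log2 differences of the tested members of the gene lists, knockout round spermatids minus spermatocytes labelled knockout, with 1 point per gene. The red blood cell list, with 1 gene tested, is left out. A red line marks the list's median, and the number of genes is in brackets. The bottom line shows all genes tested, with a median of -0.04. Acrosome (median 1.34) and tail sheath genes (1.41) lie in a band above 0, and piRNA genes (-0.74) and Sertoli cell markers (-1.37) lie mostly below it.

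Genes of the piRNA pathway, which silences transposons in the germ line, were mostly lower in knockout spermatids, with 21 of 34 down, 11 up and a median of -0.74, which was -0.28 with the spermatocyte libraries exchanged. Piwil1 (MIWI), the PIWI protein of pachytene piRNAs at chr5:128736071-128755474, measured 90.8 and 89.8 CPM in knockout spermatids, against 1083 and 1048 CPM in the spermatocytes labelled knockout. Its log2 difference of -3.56 ± 0.05 had an adjusted p of 1.9e-28. Tdrd5, a Tudor domain protein of the germ granules with a MYB core in the promoter window printed above, was at 22.2 and 23.5 CPM, against 322 and 334 CPM. Tdrd1, a scaffold of the germ granules, was at 68.9 and 62.9 CPM, against 391 and 391 CPM, and Pld6, a mitochondrial outer membrane protein of piRNA processing, at 42.5 and 43.4 CPM, against 224 and 218 CPM. Piwil1 was 11.8-fold and Tdrd5 14.4-fold lower, and in none of these 4 genes do the groups overlap, as in 88.7% of all genes tested. Tex15, by contrast, a gene needed for double-strand break repair and transposon silencing, was at 206 and 209 CPM in knockout spermatids, against 72.1 and 69.7 CPM.

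Early meiotic prophase genes fell in 19 of 32 cases and rose in 6, with a median of -0.67, which was -0.41 with the spermatocyte libraries exchanged. Hormad1, a protein of unsynapsed chromosome axes, was at 34.4 and 33.3 CPM in knockout spermatids, against 117 and 109 CPM. Spata22, which acts in the repair of meiotic breaks, was at 2.01 and 1.72 CPM, against 25.3 and 25.8 CPM, and Mlh3, a crossover protein, at 21.5 and 20.7 CPM, against 84.0 and 84.7 CPM. Of 15 genes of the synaptonemal complex and meiotic cohesin, 7 (46.7%) fell and 5 (33.3%) rose, beside 39.3% and 37.7% of all genes tested. Sycp2, of the lateral elements, was at 172 and 186 CPM, against 616 and 606 CPM, and its partner Sycp3 at 69.2 and 64.8 CPM, against 167 and 173 CPM. Rec8, the meiotic kleisin of cohesin, rose, with 129 and 131 CPM in knockout spermatids, against 40.5 and 40.9 CPM. The wider list of 38 pachytene genes had a median of 0.07, and under scaling by library totals 14 were up and 16 down.

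Genes of the meiotic divisions and the spindle were also split, with 24 of 48 lower and 19 higher, shares near the 39.3% and 37.7% of all genes tested. Cdc25a, a phosphatase that activates cyclin-dependent kinases, was at 267 and 271 CPM in knockout spermatids, against 105 and 103 CPM, and Ccnb1 (cyclin B1) at 228 and 228 CPM, against 95.6 and 99.2 CPM. Plk1, a mitotic kinase, was at 270 and 279 CPM, against 133 and 138 CPM. Fbxo43, an inhibitor of the anaphase-promoting complex, was at 11.2 and 11.6 CPM in knockout spermatids, against 78.1 and 78.7 CPM. Kif11, a spindle motor, was at 29.6 and 29.9 CPM, against 114 and 113 CPM, and the checkpoint kinase gene Bub1b at 44.3 and 44.2 CPM, against 130 and 128 CPM.

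RNA-binding and translation control genes of germ cells fell in 24 of 46 cases (52.2%) and rose in 16 (34.8%). Of all genes tested, 39.3% were lower and 37.7% higher. Paip1, which binds poly(A)-binding protein, was at 14.2 and 14.5 CPM in knockout spermatids, against 106 and 114 CPM. Rbm46, a meiotic RNA-binding protein, was at 20.2 and 21.7 CPM, against 120 and 122 CPM, and the splicing factor gene Ptbp2 at 72.4 and 74.4 CPM, against 219 and 218 CPM. Genes with ribosomal protein symbols (Rpl and Rps) were lower in 71 of 91 cases (78.0%) and higher in 9 (9.9%), with a median of -0.31. Those with respiratory chain symbols were lower in 50 of 82 (61.0%) and higher in 13 (15.9%). Both groups were picked by symbol alone, so that the first can also take in kinase genes and the second chain assembly factors. With the spermatocyte libraries exchanged, 37 genes of the first group were lower and 17 higher, and 34 of the second were lower and 20 higher. Of 345 genes with Zfp symbols, which encode zinc finger proteins, 185 (53.6%) were lower and 85 (24.6%) higher. The replication-dependent histone genes, mostly non-polyadenylated, were 8 higher (40%) and 6 lower (30%) of 20 tested, beside 37.7% and 39.3% of all genes tested. With library totals, 8 were higher and 9 lower.

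Genes of RNA polymerase II pausing and elongation, a step in which BET proteins take part, were lower in 22 of 45 cases and higher in 15, beside 39.3% and 37.7% of all genes tested, with a median of -0.18, and the list counts Nkapl itself. Cdk9, the kinase of the elongation factor P-TEFb, was at 11.5 and 11.8 CPM in knockout spermatids, against 59.4 and 59.6 CPM. Supt16, of the histone chaperone FACT, was at 28.9 and 29.3 CPM, against 114 and 112 CPM, and Nelfa, of the negative elongation factor, at 26.7 and 23.7 CPM, against 90.6 and 87.1 CPM. Ell2, of the super elongation complex, was at 90.9 and 96 CPM in knockout spermatids, against 28.4 and 30.0 CPM. Brdt, the testis BET protein, fell by 0.57 on the log2 scale in the knockout, against a log2 difference of 0.11 in the wild type, and the difference between the transitions was -0.68 ± 0.07 (SE, adjusted p of 3.5e-08).

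The sex chromosomes stood apart from the autosomes. Of 623 X-linked genes tested, 377 (60.5%) were higher and 79 (12.7%) were lower in knockout spermatids, with a median log2 difference of 1.06. Of 15126 autosomal genes, 36.7% were higher and 40.4% lower, with a median of -0.06. On the Y chromosome, 22 of 25 genes were higher and 0 lower, with a median of 1.56. In the wild type the median was 0.83 for the X, 1.34 for the Y and 0.03 for the autosomes.

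Both X-linked housekeeping genes and a list of multicopy and late X and Y genes took part. Of 50 X-linked housekeeping genes, 29 rose and 1 fell, with a median of 0.56. Cul4b, a scaffold of ubiquitin ligases at chrX:38531616-38576196, measured 205 and 206 CPM in knockout spermatids, against 73.2 and 69.7 CPM in the spermatocytes labelled knockout, a log2 difference of 1.53 ± 0.06 with an adjusted p of 1.6e-20. Usp9x, a deubiquitinase, was at 141 and 145 CPM, against 49.2 and 46.6 CPM, Phf6, a chromatin protein, at 69.4 and 69.2 CPM, against 20.2 and 20.3 CPM, and Cstf2, a polyadenylation factor, at 113 and 109 CPM, against 41.2 and 41.1 CPM. The 1 member that fell, Pqbp1, was low in all 4 libraries, with 0.630 and 0.631 CPM in knockout spermatids, against 1.20 and 1.40 CPM, and it lost its call in DESeq2, with the spermatocyte libraries exchanged and without the second spermatocyte library labelled knockout. Of 37 tested genes in the list of multicopy and late X and Y genes, 30 rose and 4 fell, with a median of 1.43. Tsga8 was at 271 and 294 CPM in knockout spermatids, against 97.1 and 99.1 CPM, and Cylc1, of the sperm head cytoskeleton, at 81.4 and 82.9 CPM, against 26.4 and 28.0 CPM. The list also counts the Y-linked translation factor gene Eif2s3y, at 73.7 and 76.5 CPM, against 25.9 and 26.6 CPM. Members of multicopy families share reads with near-identical copies, so that their individual values are uncertain.

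Several X-linked genes have autosomal retrocopies that are known to be active in male germ cells. Of 12 such autosomal genes, 9 (75%) rose and 3 (25%) fell, beside 37.7% and 39.3% of all genes tested. Among the pairs in which both members were compared, only Cstf2 and its autosomal copy Cstf2t were called in opposite directions. The X-linked gene rose by 1.43 on the log2 scale. Cstf2t was at 28.1 and 29.6 CPM in knockout spermatids, against 70.2 and 72.0 CPM, a log2 difference of -1.30 ± 0.07. Both members were higher in the pairs of Pgk2, Rpl10l, Utp14b, Rbmxl2, Gk2 and Ubl4b with their X-linked genes. Timm8a2, the autosomal copy of Timm8a1, fell by 1.82, with Timm8a1 at -0.63 and not called. Pgk2 and G6pd2, autosomal copies of Pgk1 and G6pdx, rose by 1.16 and 1.56, and Pgk1 rose by 0.34.

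**Figure D4:**
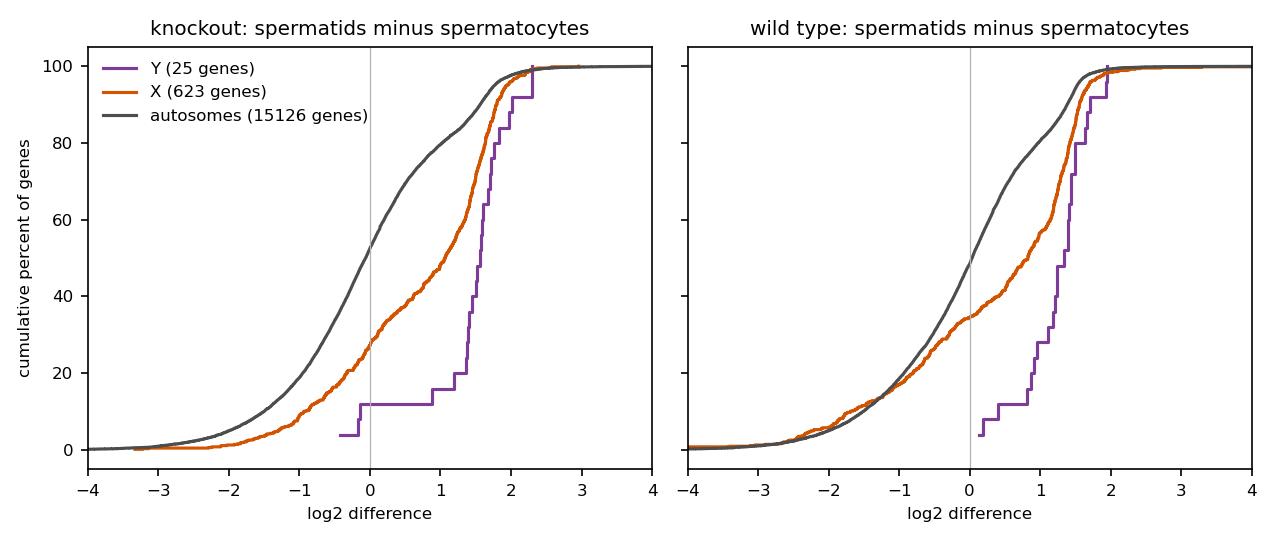
Cumulative distribution of the log2 difference, spermatids minus spermatocytes, for Y-linked, X-linked and autosomal genes, with the knockout on the left and the wild type on the right. In both panels the X and Y curves lie to the right of the autosomal curve over most of their range, with knockout medians of 1.06 for X, 1.56 for Y and -0.06 for autosomes.

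Long non-coding RNA genes leaned towards spermatids. Of 1154 tested, 625 were higher and 274 lower in knockout spermatids, with a median log2 difference of 0.76. Of 14424 protein-coding genes, 5244 were higher and 5840 lower, with a median of -0.07. In the wild type, 642 of the long non-coding RNA genes were higher and 229 lower.

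The 10 largest rises that met the rule for named genes had low levels, and most are known as macrophage or myeloid genes. C1qa and C1qc, subunits of complement C1q, were at 3.50 and 4.02 CPM and at 3.04 and 4.42 CPM in knockout spermatids, against 0.417 and 0.517 CPM and 0.574 and 0.362 CPM in the spermatocytes labelled knockout. Csf1r, the receptor of macrophage colony-stimulating factor, was at 10.4 and 8.15 CPM, against 1.09 and 1.29 CPM, and lysozyme gene Lyz2 at 13.2 and 12.2 CPM, against 1.82 and 1.96 CPM. Ctss, Ctsc and Cd74 rose by 2.97, 2.75 and 2.65 on the log2 scale, and the remaining genes were Otof (2.89), Ltbp4 (2.79) and Hao1 (2.57). Of the macrophage list, 15 of 16 members tested rose and 0 fell. Igsf6 had 20 counts in knockout spermatids and 0 in the spermatocytes labelled knockout, and was at least 7.36-fold higher by a floor of 3 counts over the group.

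The 10 largest falls that met the same rule, which leaves out genes with a mean log2 CPM under 1 and genes with Gm or Rik symbols, ranged from -3.88 to -5.29 on the log2 scale. Zfp389 was at 1.49 and 1.43 CPM in knockout spermatids, against 34.1 and 35.7 CPM, and Ccdc142 at 2.52 and 2.47 CPM, against 54.8 and 51.7 CPM. Shank1, a scaffold protein known from synapses, was at 0.974 and 0.803 CPM, against 20.2 and 15.9 CPM. Ccnb1ip1, a ubiquitin ligase of meiotic crossovers, was at 0.287 and 0.688 CPM, against 9.38 and 8.58 CPM, and its exons overlap the RNA gene Rpph1 on the same strand. The others were Ceacam20, Ptprm, Pkd2l1, Hepacam2, Mesp2 and Zfp383. Rhbg, an ammonium transporter, had 0 counts in knockout spermatids and 30 in the spermatocytes labelled knockout, and was at least 9.05-fold lower by the same floor.

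Among markers of other cells, 19 of 23 Sertoli cell genes and 10 of 12 Leydig cell genes tested were lower in knockout spermatids. Clu, a secreted chaperone abundant in Sertoli cells, was at 22.9 and 21.1 CPM, against 119 and 119 CPM, and the tight junction gene Cldn11 at 1.32 and 1.49 CPM, against 10.6 and 10.1 CPM. Cyp17a1, a steroidogenic enzyme, was at 6.82 and 7.74 CPM, against 21.6 and 24 CPM. Of the spermatogonial markers, 7 of 18 undifferentiated ones fell and 1 rose, and 7 of 14 differentiating ones fell and 2 rose. These falls make 38.9% and 50% of the 2 lists, and the first is near the 39.3% of all genes tested. Id4, of undifferentiated spermatogonia, was at 10.9 and 10.8 CPM, against 58.7 and 67.4 CPM. Myoid genes rose in 7 of 13 cases and fell in 3, with a median of 1.23 that was 0.20 with the spermatocyte libraries exchanged, with Dcn at 15 and 16.4 CPM, against 2.40 and 3.62 CPM, and endothelial genes rose in 5 of 8 and fell in 0, with Kdr at 9.51 and 10.2 CPM, against 2.76 and 3.41 CPM.

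The knockout transition was then set against that of the wild type, in which 6494 genes (41.1%) were higher and 5751 (36.4%) lower, or 77.5% in 1 direction or the other, with 3167 of them at least 2-fold higher (20%) and 2866 at least 2-fold lower (18.1%). Of these 3167 genes, 2860 were also called higher in the knockout, 7 were lower and 300 were not called. Of the 2866, 2498 were lower in the knockout, 14 were higher and 354 were not called. The log2 differences of both transitions had r = 0.87 across the 15805 genes, given as a description, since genes are not independent. The transitions share no libraries.

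The difference between the transitions was tested as a contrast in the same fit. It was higher in the knockout for 1426 genes (9.02%) and lower for 2599 (16.4%), 25.5% in all. At least 2-fold differences were called for 338 genes higher (2.14%) and 265 genes lower (1.68%). This split depends on the scaling: it was 1941 higher and 1902 lower with DESeq2's size factors in edgeR, and 3725 and 995 with library totals alone. DESeq2, which changes both the scaling and the test, gave 1024 and 1228. With the spermatocyte libraries exchanged under unchanged scaling, the split was 5820 and 4936. Single libraries matter too. Without the first or the second spermatocyte library labelled knockout, 933 or 941 genes were higher. The number of lower genes was 1461 or 1417 without the first or the second knockout spermatid library, and 1463 or 1614 without the first or the second wild-type spermatid library. By sign, 61 genes rose in the knockout and fell in the wild type, and 198 fell in the knockout and rose in the wild type.

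**Figure D5:**
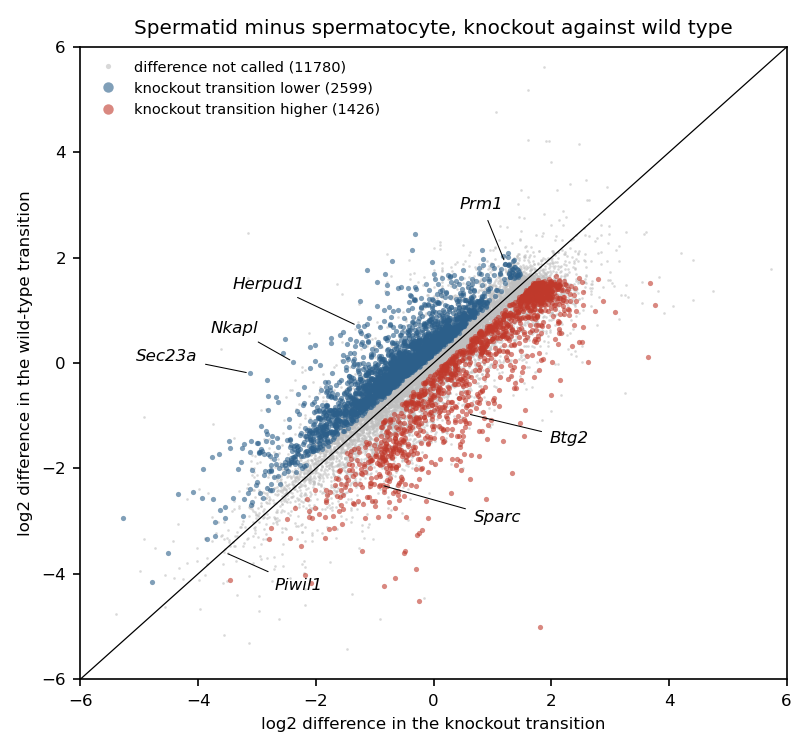
Log2 difference of each tested gene in the knockout transition (horizontal) and in the wild-type transition (vertical), with genes whose transitions differ (edgeR, adjusted p under 0.05) in blue where the knockout is lower (2599) and red where it is higher (1426), and the line of equality. Most genes lie near the line (r = 0.87), Nkapl and Sec23a lie left of it, and 12 genes fall outside the axes.

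Nkapl was among the genes with the smallest p of the lower ones, with a difference of -2.40 ± 0.09 (SE, adjusted p of 4.9e-18). Sec23a, a coat protein of vesicles that leave the endoplasmic reticulum, was at 9.28 and 10.7 CPM in knockout spermatids, against 88.8 and 83.9 CPM in the spermatocytes labelled knockout. In the wild type it was at 50.5 and 55.2 CPM in spermatids, against 64.3 and 56.7 CPM, so that the transitions differed by -2.92 ± 0.12 (adjusted p of 3.7e-17). Herpud1, of the degradation of proteins from the endoplasmic reticulum, was at 24.9 and 24.5 CPM, against 60.5 and 59.7 CPM in the knockout, and at 88.1 and 83.4 CPM, against 52.2 and 53.2 CPM in the wild type. Here the directions are opposite, and the difference was -1.99 ± 0.09. Rbm28, of ribosome biogenesis, and Rcc1, the exchange factor of Ran, showed the same crossing, with differences of -1.81 ± 0.10 and -1.24 ± 0.08. The others of this set were Leng8, Lrrc71 and Aamp, with differences of -1.02, -1.04 and -0.97. With the spermatocyte libraries exchanged, that of Leng8 turns to 0.26.

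The 8 genes with the smallest p of the higher ones were Sparc, Psap, Jun, Btg2, Fosb, Zfp36, Junb and Clu. Jun, a subunit of the AP-1 transcription factor, was at 26.3 and 24.2 CPM in knockout spermatids, against 25.5 and 25.6 CPM, and in the wild type at 10.7 and 9.25 CPM in spermatids, against 23.2 and 24.4 CPM. The difference between the transitions was 1.24 ± 0.13 (SE, adjusted p of 3.5e-08). Btg2, an antiproliferative protein, was at 15.8 and 15 CPM, against 10.6 and 10.2 CPM in the knockout, and at 5.49 and 4.92 CPM, against 9.66 and 10.6 CPM in the wild type. Fosb and Junb, which are also AP-1 subunits, and Zfp36, a protein that promotes messenger RNA decay, gave differences of 1.09, 1.38 and 1.34, and in all 5 of these genes the wild-type spermatid libraries were the lowest. The remaining 3 were Sparc (1.40), a matrix protein, Psap (1.0), the precursor of the saposins, and Clu (0.88, which turns to -0.20 with the spermatocyte libraries exchanged).

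Across lists, the difference between the transitions was lower for 32 of 68 axoneme genes and higher for 2, and lower for 22 of the 45 RNA polymerase II genes and higher for 0, beside 16.4% lower and 9.02% higher over all genes. These counts rest on the scaling too: with library totals alone, 10 axoneme genes were lower and 12 higher, and 8 RNA polymerase II genes were lower and 8 higher. Exchanging the spermatocyte libraries gave 12 RNA polymerase II genes lower and 16 higher, beside 4936 lower and 5820 higher over all 15805 genes. Dnah2 had a difference of -1.15 ± 0.08 and Catsperg2 of -0.94 ± 0.07. The group picked by ribosomal protein symbols had 42 of 91 lower and 2 higher. That picked by respiratory chain symbols had 24 of 82 lower and 0 higher. With library totals alone these counts were 5 lower and 5 higher, and 3 lower and 8 higher, and with the spermatocyte libraries exchanged 8 lower and 59 higher, and 9 lower and 33 higher. Genes of the meiotic divisions and the spindle leaned the other way, with 13 of 48 higher, 7 lower and a median of 0.12. With library totals alone 30 were higher and 3 lower, and with the spermatocyte libraries exchanged 26 and 8. Kif2c, a microtubule depolymerase, had the lowest difference of that list, -0.94 ± 0.07. Of 50 acrosome genes, 14 were higher and 7 lower, and with the spermatocyte libraries exchanged 9 were higher and 30 lower. The difference of Sox30 was -0.32 ± 0.08 (adjusted p of 0.0056) and lost its call with library totals, without a filter on low counts, in DESeq2, without the second knockout spermatid library and without the first wild-type spermatid library.

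On the X chromosome the difference was higher in the knockout for 105 of 623 genes (16.9%) and lower for 8 (1.28%), with a median of 0.32. Over all genes tested, 9.02% were higher and 16.4% lower, with a median of -0.03. Among the X-linked housekeeping genes 11 were higher and 2 lower. Rps4x, a ribosomal protein gene, was at 4.18 and 5.74 CPM in knockout spermatids, against 3.08 and 2.84 CPM, and in the wild type at 1.69 and 2.14 CPM, against 2.66 and 3.14 CPM. Hprt, of purine salvage, was at 4.07 and 2.93 CPM, against 3.65 and 2.79 CPM, and in the wild type at 1.28 and 1.39 CPM, against 2.71 and 3.55 CPM. Both differences were 1.34 on the log2 scale, at levels of a few CPM. Exchanging the spermatocyte libraries gave 216 X-linked genes higher and 111 lower, with a median of 0.32. The same exchange gave 5820 higher and 4936 lower over all 15805 genes, with a median of 0.12. The Sertoli markers also had the difference higher in the knockout, in 10 of 23 genes and lower in 1 (3 and 8 with the spermatocyte libraries exchanged), as did the Leydig markers, in 7 of 12 and lower in 1, and their part in the X-linked result was not tested.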

How the data were processed

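RNA was measured in sorted pachytene spermatocytes and round spermatids of Nkapl knockout and wild-type mice. The authors deposited raw read counts per gene, as whole numbers without scaling. TRIzol extraction and a stranded total RNA kit are named per the labels' protocols. The submitters' processing notes list mm10 with HISAT2 2.1.0, DESeq2 and HTSeq and state no role for any. None of the sources used here gives the annotation or whether strand was used in counting. Reads assigned to no gene, 18.8% to 24.6% of each file and higher in the libraries labelled knockout, were left out.

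The 8 sorted libraries were fitted together with edgeR 4.0.16 in R 4.3.3 (1 mean per group, TMM scaling, filterByExpr, quasi-likelihood F test). The knockout transition is knockout spermatids minus spermatocytes labelled knockout, and its difference from the wild-type transition is a contrast of the same fit. The SE is the log2 difference divided by the square root of F. The script was tested on simulated data. Replicates differed by 1.46 to 5.33 times the counting noise (chi-square per degree of freedom over genes), so that each was kept as a library.

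The comparison, gene lists and members were chosen with earlier results of these data known. Lists are described by counts and medians, without a set test. Genes were named by a rule: Nkapl and Sox30, the 10 largest rises and falls with a mean log2 CPM of at least 1, those with most counts among genes at 0 in 1 group, up to 4 called members of each list with the smallest p, the member nearest to a list's median, and the 8 smallest p in each direction of the difference, with Gm, Rik and small RNA genes passed over. Not all of these are described, and some genes are not reported here. Brdt, Catsper1, Catsperg2, Ccnb1, Crem, Ell2, Gopc, H3f3b, Hprt, Izumo1, Kdm3a, Kif2c, Plk1, Pqbp1, Rnf8, Rps4x, Tex15, the protamine genes and the transition protein genes were added after their values were seen. Symbols were matched to RefSeq (GRCm38.p6, 15442 by symbol, 333 by synonym, 30 unmatched), and promoter sequences are RefSeq's of the same build. Exons of 45 of the 149 genes followed under the alternatives overlap another gene, 34 of them on the other strand, and their counts are uncertain, for example Nelfa and Nsd2, Supt16 and Rpgrip1, Plcz1 and Capza3, Sycp3 and Chpt1, Junb and Prdx2, and Izumo1 and Rasip1. Alternatives were DESeq2 1.42.0, other scalings, no filter, thinning to the smallest total, a replicate block, exchanged spermatocyte labels, the 4 knockout libraries alone and leaving out each library.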

Additional observations from a re-analysis of the deposited data

Results flagged for a closer look

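These genes are listed because the knockout and the wild-type transition differed in the test of the difference itself (edgeR, adjusted p under 0.05), and each value is that difference on the log2 scale, knockout minus wild type. Lower in the knockout transition were Nkapl (-2.40), Sec23a (-2.92), Herpud1 (-1.99), Rbm28 (-1.81), Rcc1 (-1.24), Dnah2 (-1.15), Lrrc71 (-1.04), Leng8 (-1.02), Aamp (-0.97), Kif2c (-0.94), Catsperg2 (-0.94), Brdt (-0.68), Prm1 (-0.67), Tnp2 (-0.66), Prm2 (-0.59), Tnp1 (-0.47) and Sox30 (-0.32). Higher were Btg2 (1.52), Sparc (1.40), Junb (1.38), Hprt (1.34), Zfp36 (1.34), Rps4x (1.34), Jun (1.24), Fosb (1.09), Psap (1.0) and Clu (0.88). Each rests on the spermatocyte labels, which the level of Nkapl goes against.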

How the results depend on the processing

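In the knockout transition, 5333 to 6372 genes were higher and 5027 to 6988 lower over the alternatives, and 5577 to 6143 and 5735 to 6387 when 1 library was left out. Genes at least 2-fold higher numbered 3296 to 3439 and those at least 2-fold lower 2821 to 2924 without 1 library, and with the spermatocyte labels exchanged the first count moved to 2109. The difference between the transitions had 1426 genes higher and 2599 lower. With library totals these were 3725 and 995, with exchanged labels 5820 and 4936, in DESeq2 1024 and 1228, and without a filter 1381 and 1681. Without 1 library they ranged from 933 to 1472 and from 1417 to 2977. With exchanged labels the knockout difference turned to -1.97 for Prm1, -1.54 for Prm2, -1.23 for Tnp1 and -1.35 for Tnp2, and the difference between transitions to 0.030 for Sox30, -0.20 for Clu and 0.26 for Leng8, and the cause was not tested. The Sox30 difference lost its call with library totals (adjusted p of 0.34 in edgeR), without a filter (0.055), in DESeq2 (0.053), without the second knockout spermatid library (0.10 in edgeR) and without the first wild-type spermatid library (0.22). Same-numbered libraries did not deviate together (r from -0.02 to 0.04). Whether they share a mouse or a preparation was not tested. With a replicate block, 5965 genes were higher and 6219 lower in the knockout, 3346 and 2875 at least 2-fold, and the difference had 1442 higher and 2634 lower. With 2 libraries per group and no stated origin in separate mice, small differences between the transitions rest on little replication.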
